A study of Mus musculus with 8 samples.

Results

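E2F transcription factors and the pocket proteins that bind them were followed as mRNA through the making of fat cells from preadipocytes of 3T3-L1, an established fibroblast line of the mouse. The members were the genes named E2f1, E2f2, E2f3, E2f4, E2f5, E2f7 and E2f8 together with Rb1, Rbl1 and Rbl2, taken by symbol. They and the gene lists used below were chosen with earlier results of these data known. All 10 were found among the 22798 genes of the deposited table, and all 10 passed the filter on low values (an average of 10 or more) that left 14647 genes for testing. The study set out to follow gene expression through cell cycle exit and differentiation. RNA-seq libraries came from 4 stages, with 2 libraries each. Proliferation was cells in exponential growth and quiescence was cells left at confluence for 48 hours, neither of them treated. Clonal expansion was cells 10 hours after addition of a cocktail of insulin (given as 5 µg/µl), dexamethasone (1 µM) and isobutylmethylxanthine (0.25 mM). Differentiation was cells 6 days after its addition, which had the cocktail for 48 hours and insulin alone from then on. All cells were grown in DMEM with serum.

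E2F proteins bind the promoters of genes for DNA replication and cell division, most of them as dimers with a DP protein. E2f1, E2f2 and E2f3 are classed as activators, E2f4 and E2f5 act mainly as repressors with a pocket protein, and E2f7 and E2f8 are atypical repressors that bind DNA without DP or pocket proteins. The pocket proteins Rb1, Rbl1 and Rbl2 hold E2Fs inactive or turn them into repressors until cyclin-dependent kinases phosphorylate them, and 3T3-L1 cells are known to re-enter the cell cycle before they leave it for good and become fat cells. The values below are mRNA levels. Protein amounts and phosphorylation were not analysed here.

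The unit is the pseudo-count, a read count adjusted by the authors to a common library size, and the libraries summed to between 122413485 (proliferation 1) and 151529060 (clonal expansion 1). Judged by the median of the values near 1, a read stood for about 0.916 to 1.15 pseudo-counts. On this estimate the lowest member value, 147 for E2f2 in a quiescence library, was worth about 159 reads, with a counting error of 7.93%. Many low values were not whole reads on this scale, so these figures are rough. Libraries of a stage carry the experiment numbers 1 and 2, and whether these stand for separate cultures is not stated, so every p-value reflects the spread between libraries alone, and that spread may be technical. In quiescence, experiment 2 was below experiment 1 for short transcripts and above it for long ones, with median log2 differences of -0.26 for the 20% of genes with the shortest transcripts and 0.25 for the 20% with the longest. In clonal expansion these medians had the same signs and were smaller, at -0.12 and 0.088. The summed level of 6 adipocyte markers was 2165822 and 2180294 pseudo-counts in the differentiation libraries and 7484 to 10456.5 in the others. The sum of 5 preadipocyte markers was 1245989.9 to 1496819.5 at differentiation and 1701615 to 4103695 in the others.

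Promoter sequences are shown for the members whose windows carried an E2F motif, and for the atypical pair, which moved most closely together. Of the 10 members, 7 were matched in the RefSeq promoter table (GRCm38.p6), each window running from 250 bases before a listed start to 50 after it. E2f4, E2f5 and Rb1 were not matched. Capitals mark an E2F motif (TTTGGCGC, TTTCCCGC, TTTCGCGC or TTTGCCGC), the cell cycle homology region core (TTTGAA) or a CCAAT box, each searched on both strands, so that GCGGGAAA, TTCAAA and ATTGG are matches read from the other strand. No marked matches overlap.
E2f7 (chr10:110745189-110745488, plus strand): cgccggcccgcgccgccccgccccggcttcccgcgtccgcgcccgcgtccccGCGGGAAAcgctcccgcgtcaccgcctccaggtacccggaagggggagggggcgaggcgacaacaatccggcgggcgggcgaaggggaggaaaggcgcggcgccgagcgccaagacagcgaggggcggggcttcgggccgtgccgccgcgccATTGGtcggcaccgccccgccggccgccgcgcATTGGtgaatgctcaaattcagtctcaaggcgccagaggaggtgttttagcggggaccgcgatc
E2f8 (chr7:48881547-48881846, minus strand): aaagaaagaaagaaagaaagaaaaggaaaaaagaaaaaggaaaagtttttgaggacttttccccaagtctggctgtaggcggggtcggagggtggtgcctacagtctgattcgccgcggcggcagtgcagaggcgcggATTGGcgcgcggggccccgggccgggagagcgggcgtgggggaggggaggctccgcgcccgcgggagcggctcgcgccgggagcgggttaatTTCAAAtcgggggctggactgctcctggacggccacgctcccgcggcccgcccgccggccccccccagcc
E2f2 (chr4:136172024-136172323, plus strand): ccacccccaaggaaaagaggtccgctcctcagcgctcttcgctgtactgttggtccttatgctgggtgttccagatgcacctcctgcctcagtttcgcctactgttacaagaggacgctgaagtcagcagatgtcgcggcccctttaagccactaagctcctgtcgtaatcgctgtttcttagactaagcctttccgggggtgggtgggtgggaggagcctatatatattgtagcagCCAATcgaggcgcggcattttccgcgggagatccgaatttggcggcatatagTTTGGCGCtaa
E2f3 (chr13:29986014-29986313, minus strand): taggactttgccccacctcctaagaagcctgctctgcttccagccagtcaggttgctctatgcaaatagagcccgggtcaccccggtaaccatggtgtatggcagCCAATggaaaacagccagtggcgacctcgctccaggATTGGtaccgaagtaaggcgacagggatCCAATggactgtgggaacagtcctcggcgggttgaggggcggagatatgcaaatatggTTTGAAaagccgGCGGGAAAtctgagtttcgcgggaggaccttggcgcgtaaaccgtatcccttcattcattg
Rbl1 (chr2:157204485-157204784, minus strand): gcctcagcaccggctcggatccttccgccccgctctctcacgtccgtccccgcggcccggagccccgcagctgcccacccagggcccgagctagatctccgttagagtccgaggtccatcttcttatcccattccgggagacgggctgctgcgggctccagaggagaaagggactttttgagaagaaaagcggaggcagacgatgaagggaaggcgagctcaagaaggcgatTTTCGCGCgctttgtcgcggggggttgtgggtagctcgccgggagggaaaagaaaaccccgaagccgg
The E2F motif began 198 bases before the start in E2f7, 11 before it in E2f3 and 18 before it in Rbl1, and 40 bases after it in E2f2. These letters were found in 2.27% of all 32851 windows. Counted by gene, they were in windows of 2.605% of all genes. On a list of known E2F targets they were in windows of 19 of the 41 matched genes (46.3%). The E2f8 window held TTTGAA 20 bases before the start and a CCAAT box 112 bases before it. The E2f3 window shown also held both, with TTTGAA 23 bases before the start. Such a pair was found in 6.95% of all windows. TTTGAA alone was in 17.9% and CCAAT in 37.4%. The windows of E2f8 and Rbl2 and a second one listed for E2f3 held no E2F motif of these letters. The window listed for E2f1 and a second one for E2f2 may not lie at a main start and are not described.

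**Figure D1:**
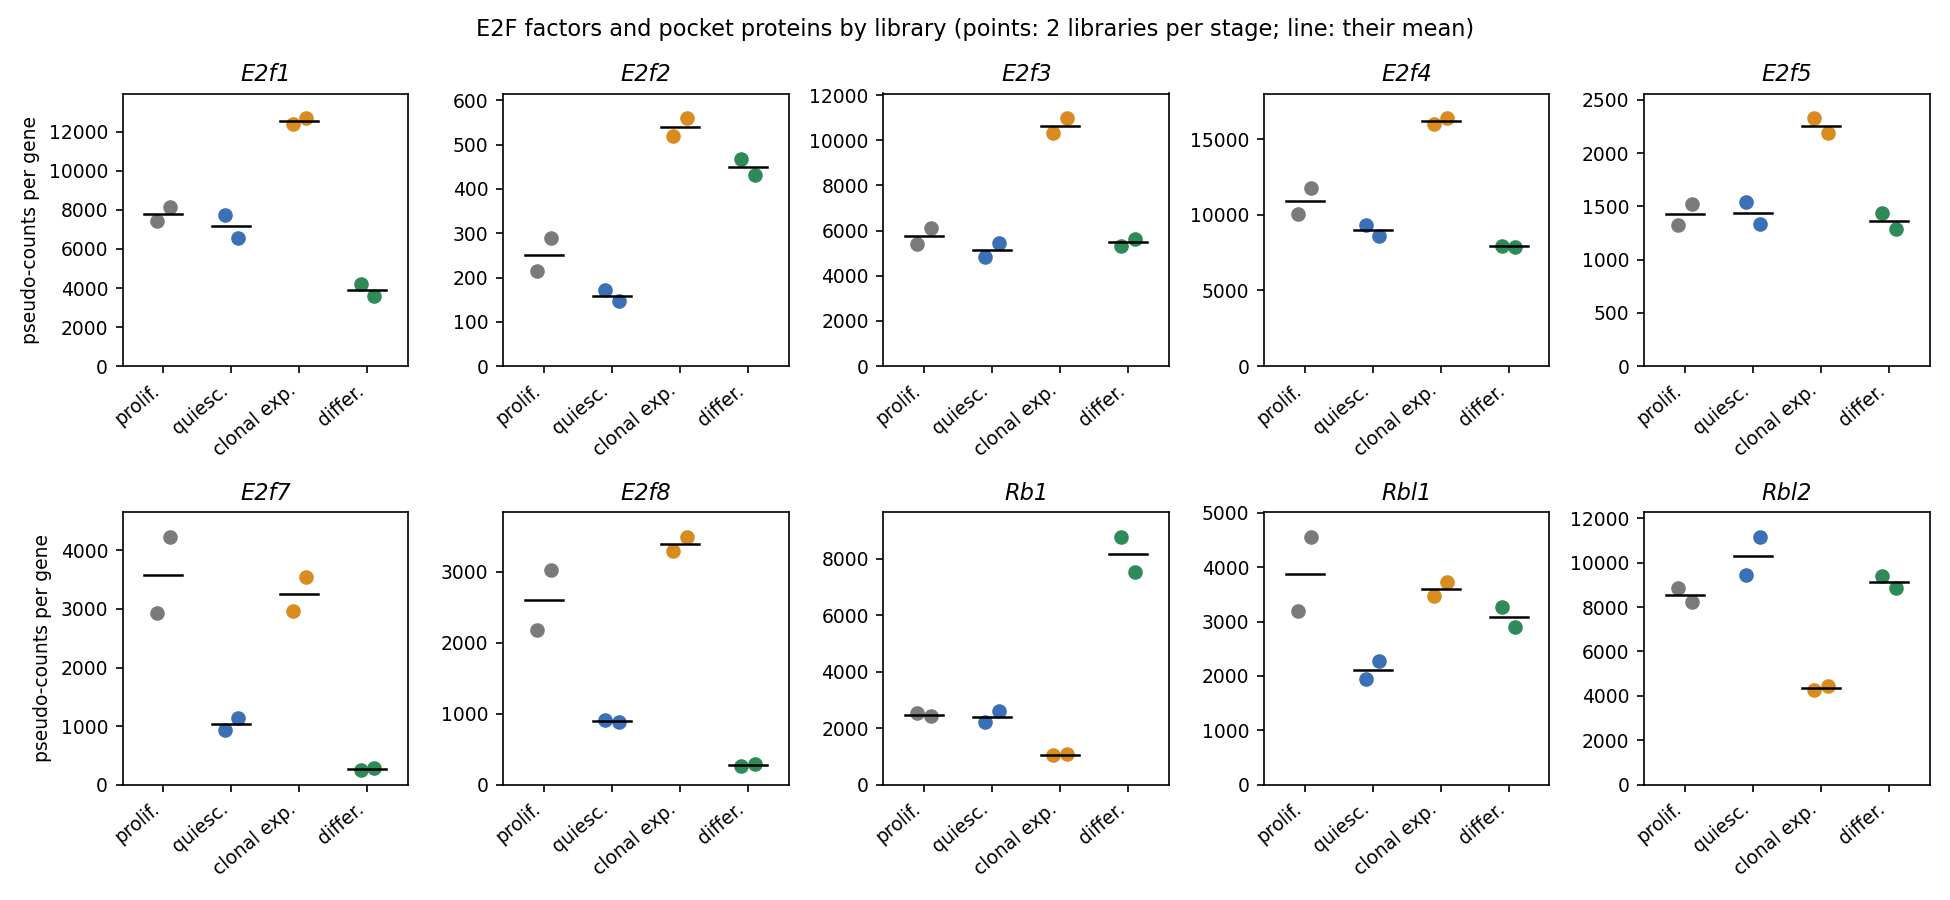
Level of each of the 10 members by stage, in pseudo-counts per gene on linear axes that start at 0. Points are the 2 libraries of a stage and the line is their mean; the E2F genes peak at clonal expansion or proliferation, and Rb1 and Rbl2 are lowest at clonal expansion.

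The activators were highest at clonal expansion, and they parted ways at differentiation. E2f1, an activator of S phase genes (gene ID 13555, chr2:154385375-154395588 in mm9), was at 7410.3 and 8169 pseudo-counts in proliferation, 7742 and 6573 in quiescence, 12407 and 12688 in clonal expansion, and 4208 and 3588 in differentiation. Both clonal expansion libraries were the highest and both differentiation libraries the lowest, while proliferation and quiescence overlapped. E2f1 rose by 0.81 on the log2 scale in clonal expansion against quiescence (SE 0.12, adjusted p = 0.000178) and fell by 1.69 in differentiation against clonal expansion (SE 0.12, adjusted p = 7.3e-07). Differentiation was also below quiescence by a log2 fold change of -0.88 (adjusted p = 0.000104) and below proliferation (95% interval -1.27 to -0.73, adjusted p = 3.67e-05). Quiescence against proliferation gave -0.13, with a 95% confidence interval of -0.39 to 0.14.

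E2f2, the member with the lowest mean over the 8 libraries (gene ID 242705, chr4:135728309-135751971), had 214 and 290 pseudo-counts in proliferation, 172 and 147 in quiescence, 519 and 560 in clonal expansion, and 467 and 433 in differentiation. No pair of stages overlapped, and the order was clonal expansion, differentiation, proliferation, quiescence. It rose by 1.76 (log2) in clonal expansion against quiescence (SE 0.20, adjusted p = 2.69e-05). Unlike E2f1, E2f2 was higher in differentiation than in quiescence, by 1.50 (SE 0.20, adjusted p = 7.56e-05), and than in proliferation, by 0.85 (adjusted p = 0.00312). Differentiation and clonal expansion, the neighbours at the top, differed by -0.26 (95% interval -0.70 to 0.18), and this fall was called only under quantile normalization among the settings tried, at -0.70. The fall of 0.65 in quiescence against proliferation (adjusted p = 0.0389) was close to the threshold. It was no longer called without proliferation library 2 (-0.43), quiescence library 2 (-0.53), or either library of clonal expansion or of differentiation (-0.65 each), nor in a fit of the 4 libraries of these stages alone.

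E2f3, the third activator (gene ID 13557, chr13:29998444-30077932), was at 5390.4 and 6112 pseudo-counts in proliferation, 4842 and 5455 in quiescence, 10326 and 10975 in clonal expansion, and 5329 and 5627 in differentiation. Clonal expansion stood alone at the top and the other 3 stages overlapped. The rise in clonal expansion against quiescence was 1.05 (log2, SE 0.11, adjusted p = 1.64e-05), and the fall in differentiation against clonal expansion was -0.96 (SE 0.11, adjusted p = 2.12e-05). In differentiation against proliferation it gave -0.07, with an interval of -0.31 to 0.17. This last comparison was called, at -0.34, when all libraries were scaled to the same total.

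E2f4, which in resting cells is the main E2F partner of Rbl2, and E2f5, its closest relative, were also highest at clonal expansion. E2f4 (gene ID 104394, chr8:107821563-107829270) was at 10056 and 11772 pseudo-counts in proliferation, 9339.6 and 8633.5 in quiescence, 15989 and 16379.8 in clonal expansion, and 7961 and 7877 in differentiation. No stages overlapped. Its log2 fold changes were 0.85 in clonal expansion against quiescence (SE 0.10, adjusted p = 5.03e-05), -1.03 in differentiation against clonal expansion (SE 0.10, adjusted p = 8.99e-06) and -0.46 in differentiation against proliferation (adjusted p = 0.00285). Quiescence against proliferation was -0.28 (adjusted p = 0.0815), and it was called without proliferation library 1 (-0.39), with equal totals (-0.32) and after a trend on the length and GC content of transcripts was taken out (-0.34). Differentiation against quiescence was -0.18 (adjusted p = 0.148), and it was called at -0.42 with equal totals, -0.32 with quantile normalization and -0.24 with that trend removed.

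E2f5 (gene ID 13559, chr3:14578671-14606288) was at 1329.0 and 1522 pseudo-counts in proliferation, 1541 and 1329.9 in quiescence, 2326 and 2187 in clonal expansion, and 1439 and 1292 in differentiation. Both clonal expansion libraries were above all others, and the other 3 stages overlapped. The rise in clonal expansion against quiescence was 0.66 (log2, SE 0.13, adjusted p = 0.00151) and the fall in differentiation against clonal expansion was -0.73 (SE 0.13, adjusted p = 0.000685). With equal totals the rise was 0.42 and still called. Differentiation gave -0.07 against quiescence (interval -0.37 to 0.23), called at -0.29 after the trend on length and GC content was taken out, and -0.06 against proliferation (-0.36 to 0.24), called at -0.34 with equal totals.

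The atypical repressors had the largest falls of all members. E2f7 (gene ID 52679, chr10:110182521-110224440) was at 2923 and 4232 pseudo-counts in proliferation, 927 and 1143 in quiescence, 2961 and 3552 in clonal expansion, and 249 and 284 in differentiation. Proliferation and clonal expansion overlapped at the top, quiescence lay below both, and both differentiation libraries were lowest. E2f7 fell by 1.77 (log2) in quiescence against proliferation (SE 0.19, adjusted p = 0.000289) and rose by 1.65 in clonal expansion against quiescence (SE 0.19, adjusted p = 3.77e-05). In differentiation it was 0.0823 times its clonal expansion level (log2 -3.60, SE 0.19, adjusted p = 1.08e-07) and 0.259 times its quiescence level (adjusted p = 1.02e-05). Clonal expansion against proliferation was -0.12, with an interval of -0.55 to 0.32.

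E2f8, the other atypical member (gene ID 108961, chr7:56121799-56136411), was at 2182 and 3031 pseudo-counts in proliferation, 913 and 882 in quiescence, 3295 and 3496 in clonal expansion, and 265 and 293 in differentiation. Its stages did not overlap, and the differentiation libraries were again far below the rest. It fell by 1.52 in quiescence against proliferation (SE 0.16, adjusted p = 0.00027), rose by 1.92 in clonal expansion against quiescence (SE 0.16, adjusted p = 4.55e-06) and in differentiation was 0.0824 times its clonal expansion level (log2 -3.60, SE 0.16, adjusted p = 3.51e-08). In clonal expansion against proliferation it gave 0.40 (adjusted p = 0.0527). That difference was called without proliferation library 2 (0.64), without either quiescence library (0.40 each) and with the length and GC trend removed (0.44). E2f8 shares 610 of its 5443 annotated exon bases with Gm2788 on the other strand, and the part of such reads was not tested. For both atypical genes proliferation library 2 was above library 1, by log2 differences of 0.53 and 0.47.

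Among the pocket proteins, Rb1 had the largest change, a rise at differentiation. Rb1, the retinoblastoma protein (gene ID 19645, chr14:73595309-73725598), was at 2523 and 2444 pseudo-counts in proliferation, 2230.0 and 2596 in quiescence, 1036 and 1079 in clonal expansion, and 8780.4 and 7528 in differentiation. Clonal expansion was lowest and differentiation by far highest, while proliferation and quiescence overlapped. Rb1 fell by 1.19 (log2) in clonal expansion against quiescence (SE 0.12, adjusted p = 1.7e-05). It rose by 2.94 in differentiation against clonal expansion, which is 7.68-fold (SE 0.12, adjusted p = 2.22e-08), by 1.76 against quiescence (adjusted p = 8.08e-07) and by 1.71 against proliferation (adjusted p = 8.99e-07). The libraries were unstranded, so reads of genes on the other strand cannot be told apart where exons overlap. Rb1 shares 408 of its 6015 annotated exon bases with Lpar6 and 488 with Rcbtb2. At differentiation Lpar6 was at 1534 and 1655 pseudo-counts, above clonal expansion at 1164 and 1088. These levels were inside its range in quiescence and proliferation of 1049.9 to 1887. Rcbtb2 moved with Rb1, at 11814 and 11826 in differentiation against 4526 and 4668 in clonal expansion. The part of either gene in the Rb1 result was not tested.

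Rbl1, a pocket protein usually found in cycling cells (gene ID 19650, chr2:156971630-157030270), was at 3191 and 4560.0 pseudo-counts in proliferation, 1947 and 2278 in quiescence, 3465 and 3719 in clonal expansion, and 3276 and 2895 in differentiation. Quiescence was the lowest, proliferation overlapped with both later stages, and its own 2 libraries were far apart. Rbl1 fell by 0.86 (log2) in quiescence against proliferation (SE 0.17, adjusted p = 0.00535) and rose by 0.77 in clonal expansion against quiescence (SE 0.17, adjusted p = 0.00217). Differentiation against clonal expansion gave -0.22 (95% interval -0.59 to 0.15), and clonal expansion against proliferation -0.09 (-0.46 to 0.29). Differentiation was above quiescence by 0.55 (adjusted p = 0.0147). That call was lost without quiescence library 1 (0.44), without differentiation library 1 (0.46), with equal totals (0.31) and with no filter on low values (0.55). Differentiation against proliferation, -0.31 (adjusted p = 0.126), was called without proliferation library 1 (-0.57) and with equal totals (-0.58).

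Rbl2, the pocket protein that accumulates in resting cells (gene ID 19651, chr8:93593993-93647397), was at 8838 and 8227 pseudo-counts in proliferation, 9426 and 11165 in quiescence, 4251 and 4463 in clonal expansion, and 9404 and 8848 in differentiation. Only clonal expansion stood apart, below the rest, and the other 3 stages lay close together without overlapping. Rbl2 fell by 1.24 in clonal expansion against quiescence (SE 0.11, adjusted p = 5.88e-06) and rose by 1.07 in differentiation against clonal expansion (SE 0.11, adjusted p = 1.01e-05). Quiescence against proliferation was 0.27 (adjusted p = 0.106), and it was called without quiescence library 1 (0.39) and with the length and GC trend removed (0.31). Differentiation against quiescence was -0.17 (adjusted p = 0.195), and it was called without quiescence library 1 (-0.29), with equal totals (-0.40) and with quantile normalization (-0.32). Against proliferation it was 0.10 (interval -0.15 to 0.34), called at 0.22 with the length and GC trend removed, and it was -0.18 with equal totals. Rbl2 shares 693 of its 7558 annotated exon bases with Aktip and 892 with Gm45464 on the other strand. Aktip was also lowest at clonal expansion, at 2024 and 1854 pseudo-counts against 5937 and 5390.4 in quiescence, and its part in the Rbl2 result was not tested.

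**Figure D2:**
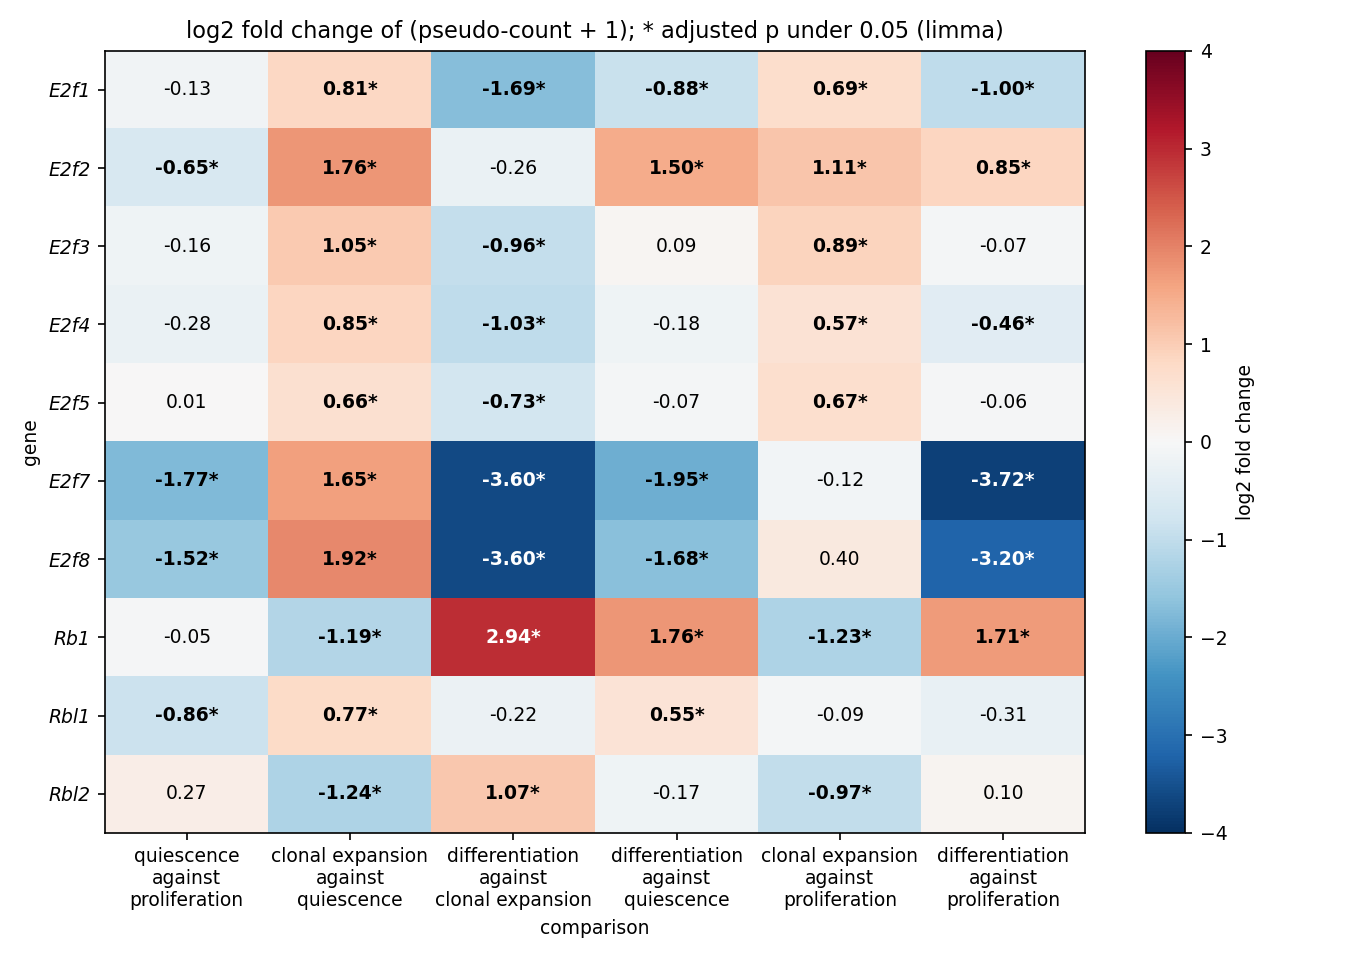
Log2 fold change of each member (rows) in the 6 stage comparisons (columns), the later stage over the earlier one, on log2(pseudo-count + 1). An asterisk marks an adjusted p under 0.05 in limma; all 10 members are marked in clonal expansion against quiescence, with Rb1 and Rbl2 negative.

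Cells at confluence had less of the atypical repressors and of nearly all E2F target genes measured. Falls of E2f2 and Rbl1 were called too, but not under every setting. In quiescence against proliferation no member rose and 4 fell (E2f2, E2f7, E2f8 and Rbl1), where 23.7% of all genes tested were called 11.9% higher and 11.8% lower. The median log2 fold change of the 10 members was -0.22, against -0.01 over all genes tested. Of 52 known E2F target genes, which encode replication and cell cycle proteins, 49 fell and none rose, with a median of -1.05. Rrm2, a subunit of the enzyme that makes deoxynucleotides, averaged 4382 ± 441 pseudo-counts in quiescence and 14912 ± 5293 in proliferation (SD, n = 2 each; log2 -1.72, adjusted p = 0.000349). Mybl2, an activator of late cell cycle genes, averaged 926 ± 90.0 in quiescence against 2264 ± 566 in proliferation (SD, n = 2 each; -1.27, adjusted p = 0.00107). Foxm1, which drives mitotic genes, gave -1.30 (adjusted p = 0.000335). With no filter on low values only 2 members, E2f7 and E2f8, and 35 of the E2F targets were called, while the share of all genes called was then 7.71%. Without proliferation library 2 it was 8.87%, with 3 members called, all lower.

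At 10 hours after the cocktail every member had changed. In clonal expansion against quiescence 8 members rose and 2 fell (Rb1 and Rbl2), where 68.8% of all genes tested were called, 34.4% higher and 34.4% lower. The libraries of these stages did not overlap for any member, and the share of all genes without overlap was not counted. The median over the members was 0.83, against -0.01 over all genes. Of the E2F targets 51 of 52 rose and none fell, with a median of 1.76. Rrm2 averaged 68294 ± 3166 pseudo-counts in clonal expansion and 4382 ± 441 in quiescence (SD, n = 2 each; log2 3.96, adjusted p = 2.3e-07), and Cdc6, a replication licensing factor, rose by 3.64 (adjusted p = 2.17e-07).

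Further genes of the pathway were read from lists of E2F partners, the DREAM and MuvB complexes, CDK inhibitors, corepressors, and turnover factors with phosphatases. Another list held cyclins, CDKs and Cdc25a of G1 and S phase, which act on pocket proteins. Mybl2, Ccne1, Ccne2, Ccna2, Cdc25a and Dnmt1 are on these lists and also among the E2F targets, so they are counted in both. In clonal expansion against quiescence the DP partner Tfdp1 rose by 1.71 (adjusted p = 1.42e-06) and E2f6, an E2F that represses without pocket proteins, by 0.85 (adjusted p = 0.000429). Of 9 DREAM and MuvB genes 5 rose and none fell, among them Mybl2 (2.06, adjusted p = 6.44e-06) and Lin54 (1.47, adjusted p = 3.47e-05). Of the 10 genes for cyclins, CDKs and Cdc25a 9 rose, the most in the E-type cyclins Ccne2 (3.36, adjusted p = 7.69e-07) and Ccne1 (2.34, adjusted p = 1.98e-06). Of 7 CDK inhibitors 5 fell and 1 rose; Cdkn2c fell by 1.28 (adjusted p = 1.67e-05) and Cdkn1b by 1.11 (adjusted p = 5.73e-06). Among 17 corepressors 9 rose and 3 fell, with Dnmt1, the maintenance DNA methyltransferase, up by 1.68 (adjusted p = 1.35e-06) and the remodelling ATPase Smarca2 down by 1.45 (adjusted p = 4.24e-06). Skp2, the ubiquitin ligase subunit that marks Cdkn1b for destruction, rose by 1.73 (adjusted p = 6.45e-06), among 5 of 7 turnover and phosphatase genes that rose. Of all genes tested 68.8% were called in this comparison. The shares were 66.7% of partners, 55.6% of DREAM and MuvB genes and 90% of the cyclin list. They were 85.7% of inhibitors, 70.6% of corepressors and 71.4% of turnover and phosphatase genes.

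Most of these changes had the opposite sign in differentiated cells. In differentiation against clonal expansion 2 members rose (Rb1 and Rbl2) and 6 fell (E2f1, E2f3, E2f4, E2f5, E2f7 and E2f8), where 73% of all genes tested were called, 36.8% higher and 36.2% lower. E2f2 and Rbl1 were the 2 members not called. The median over the members was -0.84, against 0.00 over all genes. Of the 52 E2F targets 51 fell, with a median of -2.23, and only Brca1, a DNA repair protein, rose. Rrm2 averaged 2873 ± 142 pseudo-counts in differentiation and 68294 ± 3166 in clonal expansion (SD, n = 2 each; -4.57, adjusted p = 2.59e-08), and the helicase subunit Mcm5 fell by 3.76 (adjusted p = 2.64e-08). Brca1 averaged 12538 ± 285 in differentiation against 7316 ± 628 in clonal expansion (0.78, adjusted p = 0.00161).

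In the same comparison 2 of the 3 E2F partners fell and 1 rose. Tfdp1 fell by 1.65 (adjusted p = 8.71e-07), while the other DP gene, Tfdp2, rose by 0.58 (adjusted p = 0.00179). Of the DREAM and MuvB genes 6 fell and 1 rose: Mybl2 fell by 2.92 (adjusted p = 3.21e-07), Foxm1 by 1.73 (adjusted p = 2.59e-06), and Lin52, the MuvB subunit through which pocket proteins join DREAM, rose by 1.44 (adjusted p = 2.72e-06). Of the 10 cyclin, CDK and Cdc25a genes 8 fell and 1 rose, the largest fall being that of Ccnd1, a D-type cyclin, at 8832 ± 2431 pseudo-counts in differentiation and 156782 ± 6190 in clonal expansion (-4.18, adjusted p = 2.33e-08). The CDK inhibitor Cdkn2c averaged 22079 ± 3547 in differentiation and 1176.5 ± 64.2 in clonal expansion (4.22, adjusted p = 4e-09), among 3 of 7 inhibitors that rose and 1 that fell. Skp2 fell by 2.96 (adjusted p = 8.79e-08). The shares called were 77.8% of DREAM and MuvB genes, 90% of the cyclin list and 57.1% of inhibitors, against 73% of all genes tested. Among genes tied to Rb1 and E2Fs in fat cells, 4 of 6 rose and 2 fell. Cebpa, a master regulator of fat cell genes, rose by 5.10 (adjusted p = 4.31e-09), Pparg by 3.83 (adjusted p = 6.34e-09), and Id2, an inhibitor of differentiation that binds Rb1, fell by 5.71 (adjusted p = 1.54e-08). In bulk RNA, fewer cells of a type and less RNA per cell cannot be told apart.

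Between differentiated and confluent cells the share of members called, 60%, was no higher than that over all genes tested. In differentiation against quiescence 3 members were higher (E2f2, Rb1 and Rbl1) and 3 lower (E2f1, E2f7 and E2f8), where 66.3% of all genes tested were called, 33.4% higher and 32.9% lower. With equal totals the split was 2 higher and 5 lower, and with quantile normalization, or with the length and GC trend removed, 3 and 5. Of the E2F targets 7 were higher and 35 lower, with a median of -0.60. The 7 became 4 without quiescence library 2 (34 lower), without differentiation library 1 or 2 (28 lower each), with equal totals (41 lower) and with no filter (26 lower). Fbxo5, an inhibitor of the anaphase-promoting complex, averaged 295.5 ± 24.0 pseudo-counts in differentiation and 1150.2 ± 136 in quiescence (SD, n = 2 each; -1.95, adjusted p = 9.93e-06), while Brca1 averaged 12538 ± 285 against 1896 ± 329 (2.74, adjusted p = 2.75e-07). Of the 10 cyclin, CDK and Cdc25a genes 5 were higher and 3 lower. Ccne1 was higher by 1.49 (adjusted p = 3.4e-05) and Ccne2 by 1.22 (adjusted p = 0.000496), while Ccnd1 gave -2.84 (adjusted p = 3.48e-07). Of the 7 CDK inhibitors 2 were higher and 3 lower. Cdkn2c was higher by 2.94 (adjusted p = 4.51e-08), and Cdkn1b was lower by a log2 fold change of -0.91 (adjusted p = 1.8e-05). The shares called were 80% of the first list and 71.4% of the second. The 6 comparisons share their libraries, so their values are not independent.

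Compared with exponential growth, cells at 10 hours after the cocktail had more of the activators, E2f4 and E2f5, and less Rb1 and Rbl2. In clonal expansion against proliferation 5 members were higher (E2f1, E2f2, E2f3, E2f4 and E2f5) and 2 lower (Rb1 and Rbl2), where 64.9% of all genes tested were called, 32.7% higher and 32.1% lower. E2f2 was higher by 1.11 (adjusted p = 0.000664), E2f3 by 0.89 (adjusted p = 6.12e-05), E2f1 by 0.69 (adjusted p = 0.000611), E2f5 by 0.67 (adjusted p = 0.00154) and E2f4 by 0.57 (adjusted p = 0.000797). Those of E2f1, E2f5 and E2f4 were 0.41, 0.39 and 0.30 with equal totals, and that of E2f4 was 0.34 with quantile normalization, all still called. Rb1 was lower by a log2 fold change of -1.23 (adjusted p = 1.66e-05) and Rbl2 by one of -0.97 (adjusted p = 3.65e-05). Of the E2F targets 38 were higher and 3 lower (Ccna2, Tk1 and Lig1), and 33 and 8 with equal totals, 36 and 1 with no filter, and 35 and 7 without proliferation library 1. Foxm1 was also below proliferation in clonal expansion, at 6652 ± 225 against 14854 ± 3588 pseudo-counts (SD, n = 2 each; -1.14, adjusted p = 8.65e-05). Against proliferation, differentiation had 2 members higher (E2f2 and Rb1) and 4 lower (E2f1, E2f4, E2f7 and E2f8), where 67.8% of all genes tested were called, 34.5% higher and 33.3% lower, and with equal totals 2 and 7. E2f7 was 0.0759 times its proliferation level (log2 -3.72, adjusted p = 9.29e-08) and E2f8 0.109 times (-3.20, adjusted p = 8.04e-08). E2f4 gave -0.46, and -0.73 with equal totals. Of the E2F targets 47 were lower and 3 higher. Scaling libraries to equal totals shifted the median of all genes by -0.23 in clonal expansion against quiescence, -0.24 in differentiation against quiescence, -0.27 in clonal expansion against proliferation and -0.28 in differentiation against proliferation. Quantile normalization shifted it by -0.12 in differentiation against clonal expansion, -0.11 against quiescence and -0.10 against proliferation. With equal totals, the calls over all genes split into 3763 higher and 6312 lower in clonal expansion against quiescence. They split into 3787 and 6326 in differentiation against quiescence. Against proliferation the splits with equal totals were 3178 and 6412 in clonal expansion, and 3750 and 6533 in differentiation.

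**Figure D3:**
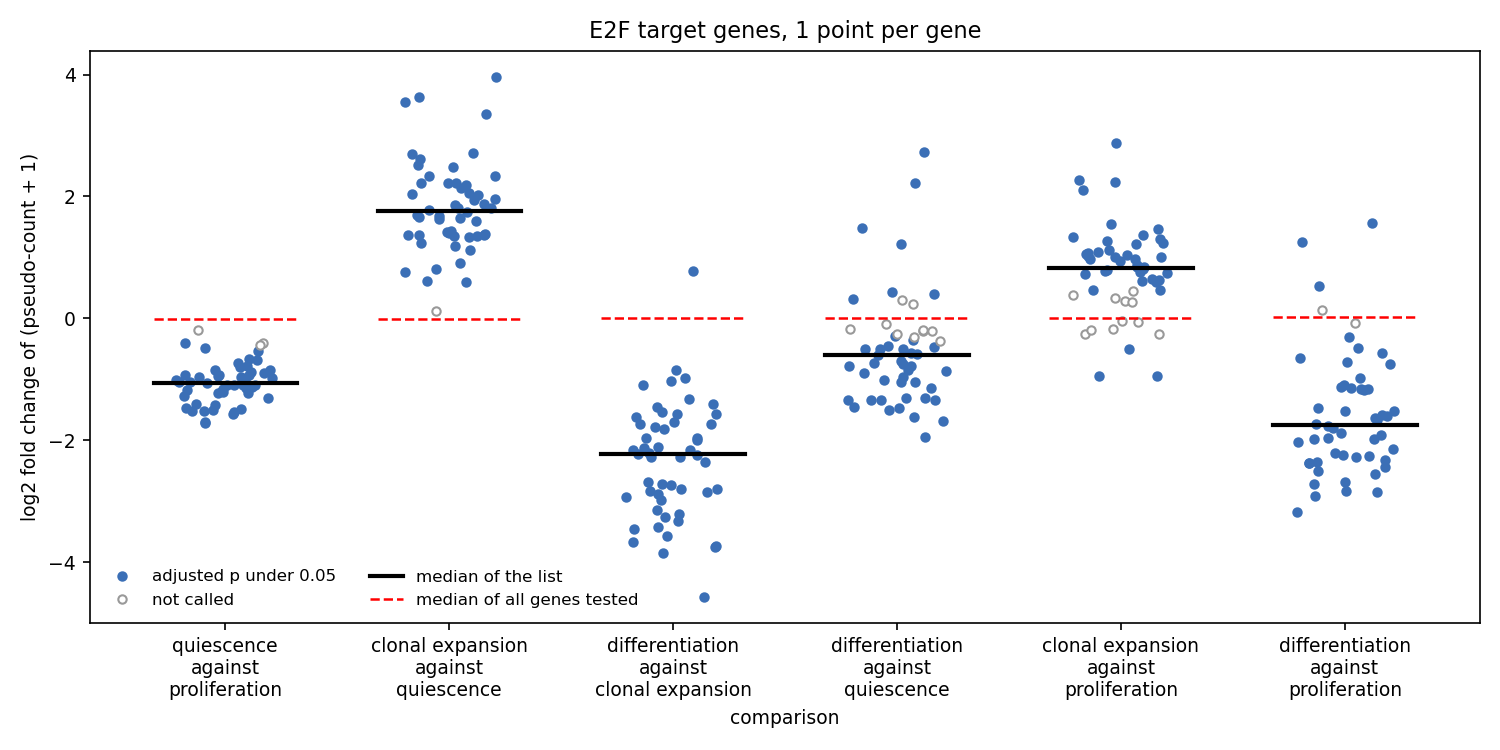
Log2 fold change of 52 known E2F target genes in the 6 stage comparisons, 1 point per gene, filled where the adjusted p in limma was under 0.05. Black lines are the list's medians, from -2.23 to 1.76, and dashed red lines the medians of all genes tested, near 0 in each comparison.

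Levels can be compared between genes only per length of transcript, and dividing by the longest annotated coding transcript (1779 nt for E2f5 to 5473 nt for E2f7) put E2f4 first among the E2Fs at every stage. E2f4 averaged 5476 pseudo-counts per kb in proliferation, 4509 in quiescence, 8121 in clonal expansion and 3973 in differentiation. E2f1 came next, at 2827 ± 195, 2598 ± 300.0, 4554 ± 72.3 and 1415 ± 159 per kb over the same 4 stages (SD, n = 2 each). E2f2 was the lowest E2F in the first 3 stages, at 53.1, 33.6 and 114 per kb. At differentiation the lowest were E2f7, at 48.7 ± 4.43 per kb, and E2f8, at 75.6 ± 5.41, below E2f2 at 94.9 ± 5.18. Among pocket proteins Rbl2 led in the first 3 stages, at 1733, 2090.4 and 885 per kb. At differentiation Rb1 (1751 ± 190.2) and Rbl2 (1853 ± 79.8) did not differ beyond their spread.

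As shares of the 7 E2F levels per kb, the repressive pair E2f4 and E2f5 made up 54.1% and 53.7% in proliferation, 56.9% and 56.3% in quiescence, 53.6% and 52.7% in clonal expansion, and 63.3% and 64.0% in differentiation. The activators together kept within 33.6% to 38.9% in all 8 libraries. The atypical pair had 10.5% and 12.7% in proliferation, 4.27% and 4.97% in quiescence, 8.24% and 8.91% in clonal expansion, and 1.55% and 1.80% in differentiation. Rb1 held 42.2% and 40.3% of the pocket protein level per kb in differentiation, against 12.2% to 18.1% in the 6 earlier libraries. Rbl1 held 39.6% and 40.2% in clonal expansion, and 14.2% to 29.9% elsewhere. Rbl2 held 68.5% and 68.8% in quiescence, and 42.7% to 60.0% elsewhere.

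Set against each other, the summed E2F level per kb was 9.68 and 9.42 times the summed pocket protein level in clonal expansion, its highest. It was 3.58 and 4.02 times in proliferation, 3.50 and 2.74 in quiescence, and 1.70 and 1.82 in differentiation, its lowest. The sums behind it were 17403 and 17921 per kb of E2F against 1798 and 1903 of pocket protein in clonal expansion. In differentiation they were 7592 and 7307 per kb of E2F against 4469 and 4009 of pocket protein. Such sums weigh each mRNA alike and say nothing of protein, and they rest on the transcript lengths used.

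**Figure D4:**
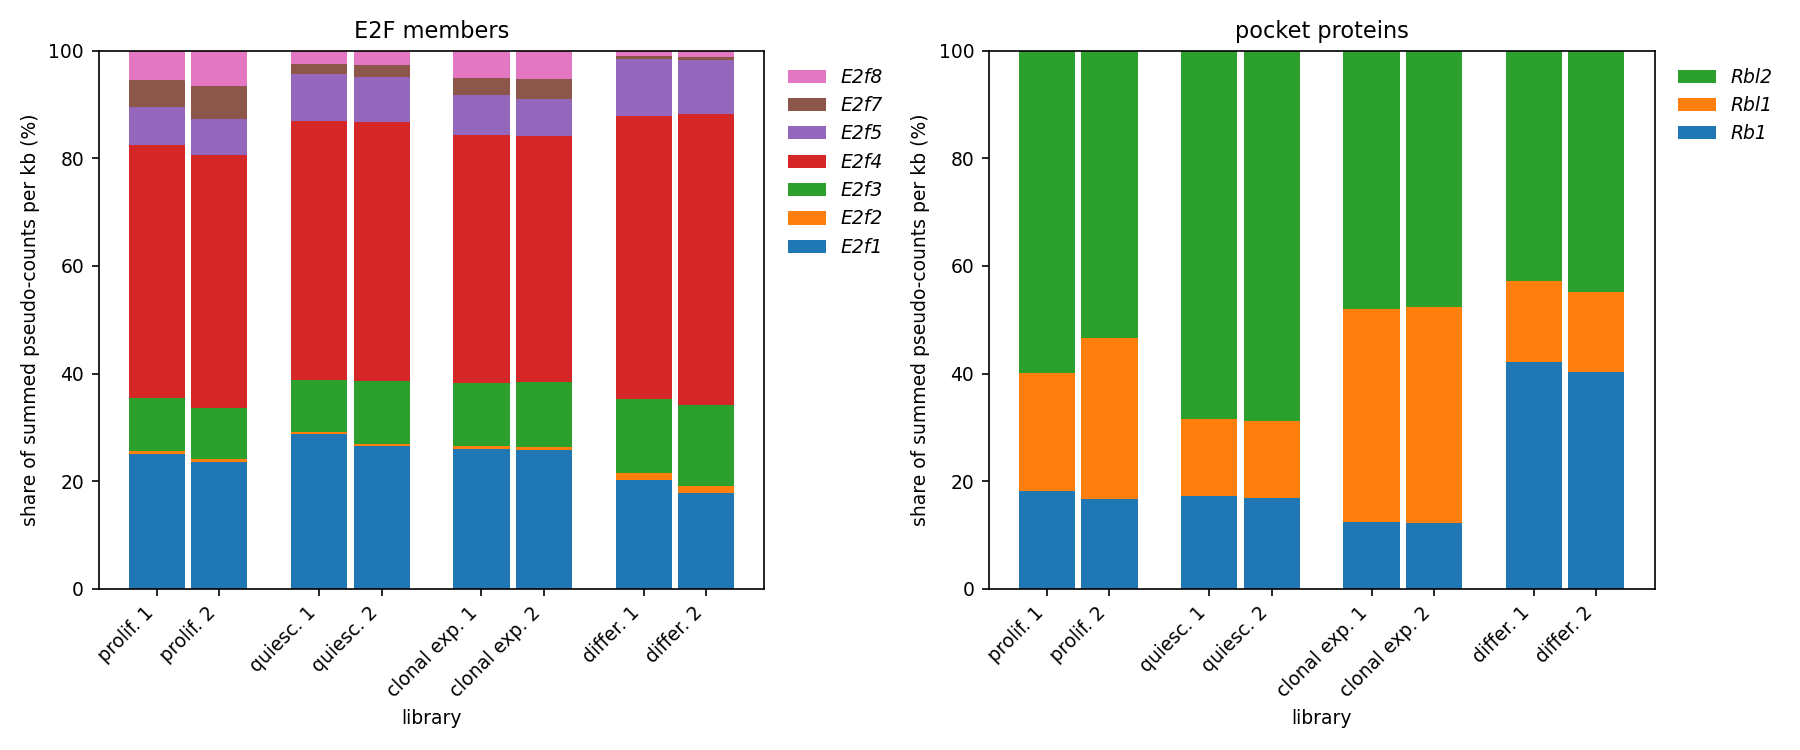
Share of each gene in the summed pseudo-counts per kb of the 7 E2F genes (left) and of the 3 pocket protein genes (right), in percent, with 1 bar per library. Rb1 takes 42.2% and 40.3% of the pocket protein level at differentiation, and E2f7 with E2f8 shrink to 1.55% and 1.80% of the E2F level.

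Across the 8 libraries, which share 4 stages and so are not 8 independent points, E2f7 and E2f8 were the most alike members, with Pearson's r of 0.989 on the log2 scale. The most opposed were E2f1 and Rb1, at -0.982, followed by E2f3 and Rbl2, at -0.967, and E2f5 and Rbl2, at -0.950. E2f2 was hardly related to E2f1 (0.101) or Rb1 (-0.012). Rbl1 had no member above 0.634, that being E2f2.

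Among non-member genes with a mean of at least 200, the closest in pattern over the 8 libraries differed from member to member. Closest to E2f1 was Cfdp1 (r = 0.997), then Snx1 and Enoph1. E2f2 was closest to Heatr2 (0.996), Cdk8 and Slc45a3, E2f3 to Xpo5 (0.996), Krr1 and Gemin5, and E2f5 to Gm13154 (0.995), Psmd9 and Med27. E2f4 was closest to Nasp, a histone chaperone (0.997), then Rgs19 and 1110034A24Rik. E2f7 was closest to Tubgcp3 (0.996), a gamma-tubulin complex subunit, the condensin subunit Smc2 and the cell surface receptor Cd44. Nearest to E2f8 were Ddx11 (0.998), a helicase, the DNA polymerase subunit Pole2 and the kinetochore protein Nsl1. Rb1 had Mtif2 (0.997), Trmt2b and Dhx40 nearest, and Rbl2 had 6720401G13Rik (0.995), 2610015P09Rik and Ccdc8. Rbl1 stood apart: Rap1gap2 reached 0.968, followed by Kctd9 and Rad18, and only 3 genes reached 0.95, against 208 to 531 genes for each other member.

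Library differences within a stage followed transcript length in quiescence for most members. E2f1, E2f4 and E2f5, with transcripts of 2755 nt or less, were lower in quiescence library 2 than in library 1, by log2 differences of -0.24, -0.11 and -0.21. E2f3, E2f7, Rb1, Rbl1 and Rbl2, with transcripts of 4656 nt or more, were higher there by 0.17 to 0.30. E2f2, at 4739 nt, went the other way, with a difference of -0.22, and E2f8, at 3691 nt, differed by -0.049. With that trend on length and GC content taken out, all 10 members were still called in clonal expansion against quiescence, 8 higher and 2 lower, and the same 8 and 2 directions held without any of the 8 libraries.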

How the data were processed

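The deposited values are a signal for each gene in each library. The authors made these values as pseudo-counts with edgeR, per the table's title, adjusting read counts by relative log expression. CASAVA 1.8.2, edgeR and mm9 stand in the submitters' processing notes; the aligner is not given in the sources used here. Libraries were unstranded TruSeq, read as single reads of 100 nt, per the labels' protocols. Low values were whole reads (within 0.05) in only 28.5% to 50.1% of cases per library, so counts could not be recovered and no count test was used.

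Genes averaging at least 10 were tested: 14647 of 22798, with 66 genes sharing a symbol. All 8 libraries entered a single limma 3.58.1 fit (R 4.3.3) of stage on log2(value + 1), with the variance trend turned on (4 residual degrees of freedom, 9.78 with those borrowed across genes). Every adjusted p is limma's, two-sided, by Benjamini-Hochberg over all genes tested, with a threshold of 0.05. Fold changes are on the log2(value + 1) scale, tested stage over the one it is set against. The fit was also run on simulated data whose noise was drawn from its own variance estimates. Such data cannot check the scaling or the length trend. Tables were handled in Python 3.11.15 (numpy 2.4.6, pandas 2.3.3). The transcript lengths and exon overlaps came from GENCODE M21 (GRCm38), and gene coordinates in mm9 as deposited. The members and lists were chosen with earlier results of these data known. Named genes were all members, up to 3 rises and 3 falls per list and comparison averaging 200 or more in the higher stage, of which the text gives some, picked with the alternatives' results in view, and for each member the 3 genes most like it. The alternatives were scaling to equal totals, quantile normalization, pseudocounts of 0.5 and 5, no filter, a mean of at least 50, no trend, only the 4 libraries compared, a replicate block, leaving out each library, and, added after seeing the data, removal of a cubic trend on transcript length and GC content.

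Genes marking other cell types moved with stage. Their summed values in the differentiation libraries and the others were 730 to 741 and 1835 to 4809 for macrophages and blood, 116 to 144 and 147 to 288 for endothelium, 58.2 to 110.0 and 3.6 to 19.4 for epithelium, and 161 to 209 and 75.9 to 201 for muscle. Their part in the results was not tested. Ptprc, Itgam, Kdr, Epcam, Cdh1, Myod1 and Myog averaged under 10.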

Additional observations from a re-analysis of the deposited data

How the results depend on the processing

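With no filter on low values 2 members were called in quiescence against proliferation, against 4 with it; all other totals of members and of E2F targets called stayed within 1.5 times under every setting. Counts in a single direction moved more: with equal totals, 7 members against 4 were lower in differentiation against proliferation, and the splits given with the comparisons changed. Leaving out each library in turn gave 3 to 5 members called in quiescence against proliferation, 10 to 10 in clonal expansion against quiescence, 8 to 8 in differentiation against clonal expansion, 5 to 6 in differentiation against quiescence, 7 to 8 in clonal expansion against proliferation and 6 to 7 in differentiation against proliferation. For E2F targets these were 43 to 50, 49 to 51, 52 to 52, 32 to 45, 39 to 44 and 45 to 50, in the same order. Among log2 fold changes of members, only uncalled ones changed sign; the cause was not tested. With equal totals these were E2f5 in quiescence against proliferation (-0.030), E2f3 in differentiation against quiescence (-0.14) and Rbl2 in differentiation against proliferation (-0.18). With quantile normalization they were E2f5 (0.000426) and Rbl2 (-0.003819) in differentiation against proliferation. A called list gene, Rbbp4 in clonal expansion against proliferation, reached -0.022. After removal of the length and GC trend they were Rb1 in quiescence against proliferation (0.020) and E2f3 in differentiation against proliferation (0.042). Without single libraries, E2f5 ranged from -0.10 to 0.12 and Rb1 from -0.16 to 0.064 in quiescence against proliferation, and E2f5 from -0.18 to 0.036 in differentiation against quiescence. In clonal expansion against proliferation E2f7 ranged from -0.38 to 0.15 and Rbl1 from -0.35 to 0.17. In differentiation against proliferation E2f3 ranged from -0.16 to 0.023 and E2f5 from -0.16 to 0.037.

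Deviations from the stage means of libraries with the same number were correlated at 0.013 to 0.354 over the 6 pairs of stages, not all above 0.1, so the numbers were not taken as pairing. With a replicate block 4, 10, 8, 6, 8 and 6 members and 50, 51, 52, 42, 42 and 50 E2F targets were called, in the order of comparisons above, and E2f8 in clonal expansion against proliferation (0.40) gained a call (adjusted p = 0.0335).

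Depth limited no member strongly. Small changes are limited by having 2 libraries per stage, by the scaling and by the length trend. That trend was largest in the quiescence libraries and next largest in those of clonal expansion.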
